A study of Rattus norvegicus with 144 samples.

Results

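The cell death regulators described here are the genes of a rat liver array study whose annotated symbol names a caspase, a BCL2 family member or BNIP protein, an inhibitor of apoptosis, a TNF receptor superfamily member (Fas included), or one of the adaptors, kinases and apoptosome factors that act with them. The symbol rule found 50 genes, measured by 59 probes, among the 18978 gene rows tested over the whole array. Rows stand for annotated genes, and for single probes where the annotation gave no symbol or several. They comprise 13 receptors, 7 adaptors and kinases, 2 apoptosome factors, 8 caspases (with the caspase-8 partner Casp8ap2 counted among them), 17 BCL2 family genes and 3 inhibitors of apoptosis. All 50 had values in every group and were kept in every fit, since no filter on low values was applied.

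The rats were 72 male F344/N animals of 10 to 12 weeks, an inbred laboratory strain. All received gavage with ethyl cellulose at 0.5%, split into 2 doses, either alone (vehicle) or with 150, 1500 or 2000 mg/kg acetaminophen (APAP), a painkiller toxic to the liver when overdosed. Left lobes were taken at 3, 6 or 24 h, which makes 12 groups of 6 rats. Each liver was compared on 2 arrays with exchanged dyes with pooled RNA of 6 vehicle rats of its time point.

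Apoptosis is set off along an extrinsic and an intrinsic path. In the extrinsic path, ligands of the TNF family bind death receptors, and adaptors such as Fadd then assemble a complex that activates caspase-8. In the intrinsic path, BCL2 family proteins decide whether Bax and Bak1 open the outer mitochondrial membrane, after which Apaf1 and caspase-9 form the apoptosome. Hepatocytes depend on Bid to link the paths. Acetaminophen overdose is known for necrotic death of hepatocytes around the central vein, in which caspases are thought to have a small part, and for the later arrival of neutrophils and monocytes.

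Values are log2 ratios of a rat's RNA over the pool of its time, so they show no absolute level, and the labelled tissue could not be checked by the level of its markers. The base of the deposited logs is not stated, and log10 was assumed. Another base would multiply every log2 value by 1 factor and leave the counts of called genes as they are. The direction, Cy5 over Cy3, is likely and not certain. It rests on stress-response genes that were higher after the high doses, among them the pseudokinase gene Trib3 with a log2 difference of 3.60 ± 0.34 (SE) at 24 h and 2000 mg/kg. Differences below are log2 differences ± SE between 6 dosed and 6 vehicle rats, with a limma p adjusted over all 18978 rows, and a gene is called when that p is under 0.05. The SE uses 1 spread per gene over all 12 groups, so it is too small for groups whose rats differed widely, as at 24 h after the high doses. The 3 dose groups of a time share their vehicle rats. In whole liver, fewer cells of a type and less RNA per cell cannot be told apart.

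Some arrays stood apart. A set of 49 arrays shares 500 probes left blank and holds both arrays of 23 rats, spread over the groups unevenly, with 0 of 6 vehicle rats but 3 of 6 rats at 2000 mg/kg at 3 h. In 12 rats the dye-exchanged arrays correlated above -0.1 over probes, against a median of -0.421 over all 72 rats, where exchanged dyes give negative values. At 3 h these were 1009, 3420, 0613, 2105, 2730, 7365 and 7763, and at 6 h 1871, 8897, 5870 and 5886. At 24 h it was vehicle rat 0685, with the highest value of all, 0.311. Rat 0685 was also the lowest vehicle rat at 24 h for Casp6, Bid, Traf2 and Traf4, among others. Several calls below were lost without 1 of these rats, and the part of array quality was not tested. With the blank set as a covariate the counts of called regulators given below were the same. Among the rats with no array in the set they were 0 and 3 at 3 h, 1 and 2 at 6 h, and 3 and 7 at 24 h, after 1500 and 2000 mg/kg. Without the 12 rats they were 5 and 3, 1 and 4, and 10 and 11 in the same order. Both settings also leave fewer rats.

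At 24 h after 2000 mg/kg, 15 of the 50 regulators (30%) were called, against 24.3% of all rows. Of these 12 were higher (11.8% of all rows were) and 3 lower (12.5%). The median log2 difference of the 50 was 0.16, beside -0.02 for all rows. At 24 h after 1500 mg/kg, 12 (24%) were called against 21.5% of all rows, with 11 higher (10.2%) and 1 lower (11.4%), and a median of 0.20 beside -0.01. The shares called were thus close to the background at 24 h, while more of the called regulators were higher than lower.

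At 3 h after 1500 mg/kg, 8 regulators (16%) were called against 5.84% of all rows, with 3 higher (3.39%) and 5 lower (2.44%). At 3 h after 2000 mg/kg, 10 (20%) were called against 9.01%, with 4 higher (4.92%) and 6 lower (4.09%). The medians of the 50 were -0.04 and -0.07, beside 0.00 for all rows. At 6 h the counts were 5 (10%) against 6.88% after 1500 mg/kg, with 4 higher (3.65%) and 1 lower (3.23%), and 8 (16%) against 11.1% after 2000 mg/kg, with 5 higher (5.31%) and 3 lower (5.84%). The medians at 6 h were 0.08 and -0.01, beside 0.00. Over these 6 comparisons 25 regulators were called at least once, 15 of them only as higher, 6 only as lower and 4 in both directions, and the other 25 were never called. Of all rows 38.7% were called at least once, 17.8% only as higher, 18.6% only as lower and 2.21% in both directions, against 50%, 30%, 12% and 8% of the regulators.

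**Figure D1:**
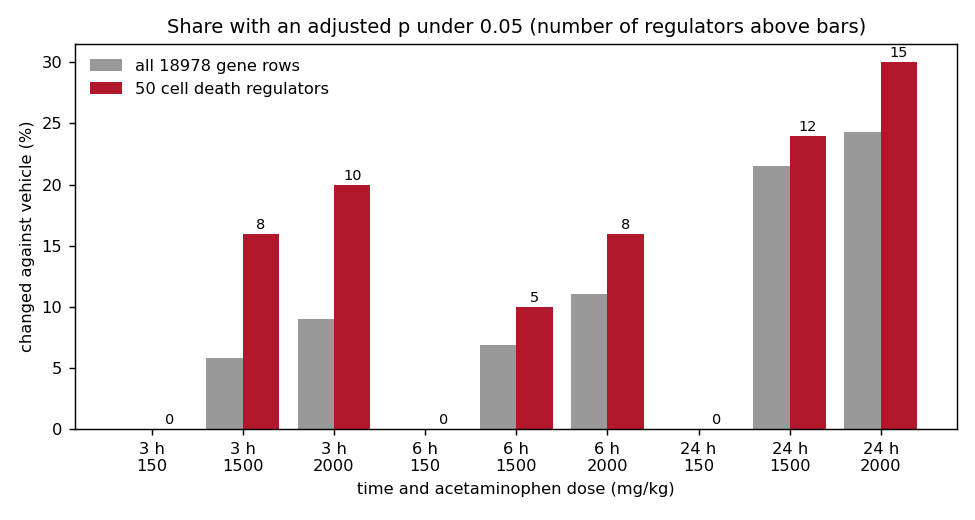
Share of genes with an adjusted p under 0.05 against vehicle (y axis, percent) for each time and dose (x axis), for the 50 cell death regulators and for all 18978 rows. The number above each pair of bars is the count of regulators, which is 0 at 150 mg/kg at every time and highest, at 15, at 24 h and 2000 mg/kg.

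Among the called regulators, 6 genes carried a change that held under every processing alternative and with each rat left out in turn, in at least 1 comparison. These were the TNF receptor gene Tnfrsf1a and the BH3-only gene Bmf at 24 h after both doses, the mitophagy receptor gene Bnip3 and the adaptor gene Traf4 at 24 h after 2000 mg/kg, Bnip3l at 6 h after 2000 mg/kg, and the survival gene Bcl2a1 at 3 h after 2000 mg/kg.

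The promoters of 5 of these genes are shown as the sequence next to the transcripts whose amounts moved most firmly. They come from RefSeq on GRCr8, are 300 bases long, run 5′ to 3′ on the gene's strand and cross its annotated start; the table used held promoters of 36 of the 50 regulators. Capitals mark a match to ACGTG, the core of the hypoxia response element. Bmf is at chr3:125974015-125974314 on the minus strand, Bnip3 at chr1:203154913-203155212 on the minus strand, Bcl2a1 at chr8:98596556-98596855 on the plus strand, Tnfrsf1a at chr4:159836869-159837168 on the plus strand and Traf4 at chr10:63558307-63558606 on the minus strand.
Bmf: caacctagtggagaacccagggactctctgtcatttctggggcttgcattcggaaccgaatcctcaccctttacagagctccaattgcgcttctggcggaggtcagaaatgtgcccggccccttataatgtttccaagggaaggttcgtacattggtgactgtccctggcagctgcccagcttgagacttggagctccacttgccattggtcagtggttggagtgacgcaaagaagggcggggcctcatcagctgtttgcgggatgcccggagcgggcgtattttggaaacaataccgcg
Bnip3: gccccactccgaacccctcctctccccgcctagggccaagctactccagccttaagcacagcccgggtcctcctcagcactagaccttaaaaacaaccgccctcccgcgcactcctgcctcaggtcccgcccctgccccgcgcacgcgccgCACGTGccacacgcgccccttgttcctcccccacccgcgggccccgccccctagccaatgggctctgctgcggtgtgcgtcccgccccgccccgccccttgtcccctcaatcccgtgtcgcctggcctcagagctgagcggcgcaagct
Bcl2a1: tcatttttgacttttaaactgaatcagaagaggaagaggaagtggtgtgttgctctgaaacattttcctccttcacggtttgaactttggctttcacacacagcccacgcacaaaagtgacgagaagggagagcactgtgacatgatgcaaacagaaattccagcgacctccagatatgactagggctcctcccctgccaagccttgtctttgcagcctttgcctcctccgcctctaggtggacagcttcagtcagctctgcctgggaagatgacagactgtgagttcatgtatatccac
Tnfrsf1a: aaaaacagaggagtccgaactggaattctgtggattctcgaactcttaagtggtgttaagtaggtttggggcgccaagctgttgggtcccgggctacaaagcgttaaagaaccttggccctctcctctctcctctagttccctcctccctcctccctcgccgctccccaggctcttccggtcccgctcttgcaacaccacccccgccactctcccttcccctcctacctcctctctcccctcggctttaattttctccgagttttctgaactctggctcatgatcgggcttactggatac
Traf4: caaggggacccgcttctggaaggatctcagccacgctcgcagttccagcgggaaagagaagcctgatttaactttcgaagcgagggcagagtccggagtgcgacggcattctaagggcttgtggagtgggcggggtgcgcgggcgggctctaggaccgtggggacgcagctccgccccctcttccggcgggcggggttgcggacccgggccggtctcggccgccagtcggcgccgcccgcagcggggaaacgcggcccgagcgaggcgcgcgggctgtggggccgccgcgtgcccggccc
The letters ACGTG, searched on both strands, were in 10 of the 36 promoters of regulators (27.8%) and in 19.3% of the 33469 promoters of the table. Bnip3 holds them once on each strand within the overlapping CACGTG. The AP-1 pattern TGACTCA was in 5 (13.9%) against 4.63%, and the forkhead pattern TGTTTAC in 3 (8.33%) against 3.78%. The other printed promoters held none of the 3 patterns in these windows. The G and C content was 71.3% for Bnip3 and 72.7% for Traf4, against 55.7% for Bmf, 55.7% for Tnfrsf1a and 48.7% for Bcl2a1.

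**Figure D2:**
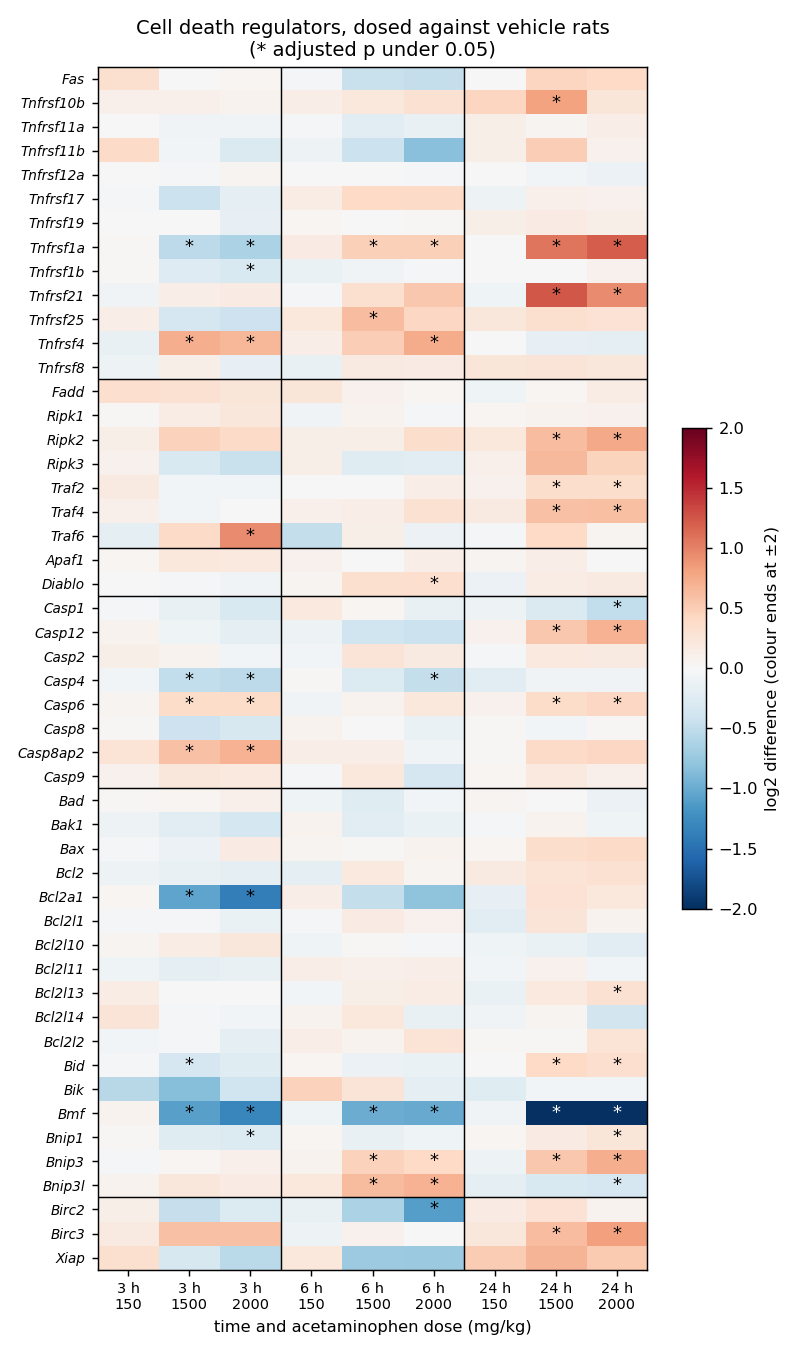
Log2 difference from vehicle (colour, which ends at ±2) of the 50 regulators, grouped by role, for each of 9 comparisons of dose and time. Asterisks mark an adjusted p under 0.05: they are absent at 150 mg/kg, and the darkest cells are those of Bmf at 24 h, at -2.43 and -2.59.

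Among the receptors, Tnfrsf1a, which encodes the death domain receptor through which TNF acts on hepatocytes, was lower than vehicle at 3 h and higher at 6 h and 24 h. At 3 h its lowest, median and highest log2 ratios were 0.08, 0.28 and 0.33 in vehicle rats, -0.44, -0.27 and -0.02 after 1500 mg/kg, and -0.81, -0.32 and -0.23 after 2000 mg/kg. All 12 high-dose rats lay below all vehicle rats. The differences were -0.52 ± 0.15 (adjusted p = 0.0207) and -0.64 ± 0.15 (0.0016). At 24 h the ratios were -0.11, 0.22 and 0.48 with vehicle, 0.66, 1.29 and 1.83 after 1500 mg/kg, and 0.95, 1.32 and 2.05 after 2000 mg/kg. Again the groups did not overlap, now with all high-dose rats above. The rises were 1.07 ± 0.15 (6.79e-08), or 2.1-fold, and 1.22 ± 0.15 (1.61e-09), or 2.32-fold. The ratios at 6 h were -0.01, 0.18 and 0.56 with vehicle, 0.19, 0.70 and 1.17 after 1500 mg/kg, and 0.61, 0.68 and 0.80 after 2000 mg/kg. The 6 rats at 2000 mg/kg lay above all vehicle rats, and 4 of 6 did at 1500 mg/kg. The differences at 6 h were 0.48 ± 0.15 after both doses (0.0315 and 0.0224). The call at 6 h and 1500 mg/kg was lost on leaving out any 1 of the 12 rats other than 3942, 0644, 7334 and 8918 (adjusted p up to 0.137), and that at 2000 mg/kg without vehicle rat 8897 (0.0657).

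Tnfrsf4, the costimulatory receptor OX40 of activated T cells, was higher early. At 3 h its log2 ratios were 0.22, 0.57 and 0.90 with vehicle, 0.78, 1.31 and 1.43 after 1500 mg/kg, and 1.02, 1.20 and 1.34 after 2000 mg/kg. One rat at 1500 mg/kg overlapped with vehicle and none at 2000 mg/kg. The rises were 0.72 ± 0.18 (0.00744) and 0.66 ± 0.18 (0.0116). The 6 h ratios were 0.26, 0.39 and 0.73 with vehicle, 0.57, 0.98 and 1.33 after 1500 mg/kg, and 0.90, 1.11 and 1.95 after 2000 mg/kg, with a rise of 0.75 ± 0.18 (0.00268) at the higher dose. At 24 h Tnfrsf4 was not called (-0.17 and -0.20). The summed markers of T and NK cells, given as a mean log2 ratio over 12 genes, ranged at 3 h from -0.35 to -0.02 with vehicle, from -0.35 to -0.13 after 1500 mg/kg and from -0.41 to -0.18 after 2000 mg/kg. At 6 h they ranged from -0.31 to 0.02 with vehicle and from -0.45 to -0.22 after 2000 mg/kg. In these comparisons 2.44%, 4.09% and 5.84% of all rows were lower. Of the 12 markers 0 were higher, and 0, 1 and 1 were lower. The part of these cells in the rise was not tested.

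The remaining receptor calls were for 4 genes. Tnfrsf21, which encodes death receptor 6, had log2 ratios at 24 h of -0.20, -0.18 and 0.31 with vehicle, -0.16, 1.07 and 2.68 after 1500 mg/kg, and -0.36, 0.11 and 3.12 after 2000 mg/kg. It was high in 5 of the 12 high-dose rats, at 3.12 in 8089, 2.68 in 9537, 2.24 in 7075, 2.19 in 5889 and 1.77 in 8194, while the other 7 lay between -0.36 and 0.37. These 5 rats also had the highest values of the neutrophil marker S100a9, described with the other neutrophil genes below, and the part of neutrophils was not tested. The mean differences, which rest on these rats, were 1.24 ± 0.33 (0.00355) after 1500 mg/kg and 0.95 ± 0.33 (0.0275) after 2000 mg/kg. The TRAIL receptor gene Tnfrsf10b rose at 24 h after 1500 mg/kg by 0.80 ± 0.21 (0.00335), while after 2000 mg/kg its difference was 0.24 (0.478). Its log2 ratios ran from -1.09 to 0.28 with vehicle and from 0.06 to 1.14 after 1500 mg/kg, which overlap. Vehicle rats 5999 (-1.09) and 2483 (-0.85) were the lowest. Tnfrsf25, a death receptor found mainly on lymphocytes, was higher at 6 h after 1500 mg/kg by 0.62 ± 0.18 (0.0264). Tnfrsf1b, the TNF receptor without a death domain, was lower at 3 h after 2000 mg/kg, with a difference of -0.31 ± 0.09 (0.0164), and its probes gave -0.44 (0.00997) and -0.18 (0.45). At 3 h after 1500 mg/kg the probes gave -0.49 (0.00504) and -0.03 (0.964). At 24 h after 2000 mg/kg they went opposite ways, at 0.38 (0.0143) and -0.22 (0.237). The Tnfrsf21 call at 2000 mg/kg was lost without rat 5889 (difference 0.68, adjusted p 0.151) or 8089 (0.49, adjusted p 0.256), that of Tnfrsf1b without 1009 (0.0594), and that of Tnfrsf25 without 8897, 9203, 1376, 2123 or 5407 (up to 0.0925).

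Fas, the receptor for Fas ligand and the classical death receptor of hepatocytes, was not called against vehicle at any dose or time. At 24 h its log2 ratios were -0.65, -0.24 and 0.18 with vehicle, -0.55, 0.16 and 0.91 after 1500 mg/kg, and -0.73, 0.10 and 1.13 after 2000 mg/kg, and the groups overlapped. The differences were 0.43 ± 0.20 (0.113) and 0.39 ± 0.20 (0.147). At 6 h they were -0.44 (0.207) and -0.48 (0.117). Tnfrsf12a, the receptor for TWEAK, had differences between -0.11 and 0.05 in the 9 comparisons. The osteoprotegerin gene Tnfrsf11b was at -0.84 at 6 h after 2000 mg/kg (0.138). Tnfrsf8, Tnfrsf11a, Tnfrsf17 and Tnfrsf19 were not called either, and Tnfrsf19 was listed as exactly 0 on 139 arrays, so that it was in effect not measured.

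Of the 7 adaptors and kinases, 3 were called as higher at 24 h. Traf4 encodes a TRAF adaptor expressed in epithelia. Its log2 ratios at 24 h were -0.23, 0.43 and 0.65 with vehicle, 0.46, 1.05 and 1.20 after 1500 mg/kg, and 0.82, 0.90 and 1.23 after 2000 mg/kg. All 6 rats at 2000 mg/kg and 5 at 1500 mg/kg lay above all vehicle rats. The rises were 0.59 ± 0.12 (9.89e-05) and 0.61 ± 0.12 (4.83e-05), or 1.52-fold at the higher dose. Traf2, which brings inhibitor of apoptosis proteins to the TNF receptor complex, was higher by 0.36 ± 0.12 after both doses (0.0235 and 0.0216). Ripk2, the kinase of NOD signalling, had mean differences of 0.62 ± 0.23 (0.0399) and 0.75 ± 0.23 (0.00899). Its log2 ratios were -0.27, 0.15 and 0.31 with vehicle, -0.09, 0.51 and 1.56 after 1500 mg/kg, and 0.05, 0.27 and 2.63 after 2000 mg/kg. The high values were those of 8089 at 2.63, 5889 at 1.63, 9537 at 1.56, 7075 at 1.47 and 8194 at 0.67, the same 5 rats with the highest S100a9, and the other 7 high-dose rats lay between -0.09 and 0.36.

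The Traf2 call was lost after 1500 mg/kg without rat 0685, 7075, 8194 or 9537 (up to 0.12) and after 2000 mg/kg without 0685, 5889 or 8089 (up to 0.123). The Ripk2 call was lost after 1500 mg/kg without any 1 of 0685, 2483, 7393, 7075, 8194 and 9537 (up to 0.193), and after 2000 mg/kg without 5889 (0.0552) or 8089 (0.125). At 3 h Traf6, an adaptor of interleukin-1 and Toll-like receptors, was higher after 2000 mg/kg by 0.95 ± 0.27 (0.0145), a call lost without 1009, 7365 or 7763 (up to 0.0771) and kept in 6 of 12 alternatives. Those rats are among the 12 rats whose 2 arrays agreed poorly. Fadd and the kinase genes of necroptosis, Ripk1 and Ripk3, were not called. Ripk3 was at 0.64 at 24 h after 1500 mg/kg (0.0753) and at 0.45 after 2000 mg/kg. These means hid a split between rats. Ripk3 was at 2.23 in 9537, 2.11 in 5889, 1.855 in 7075 and 0.99 in 8089, the rats with the highest S100a9. The highest vehicle value was 0.50. Rats 2015 (0.75) and 8194 (0.71) also lay above it, while the lowest high-dose value was -0.35 in 9398.

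**Figure D3:**
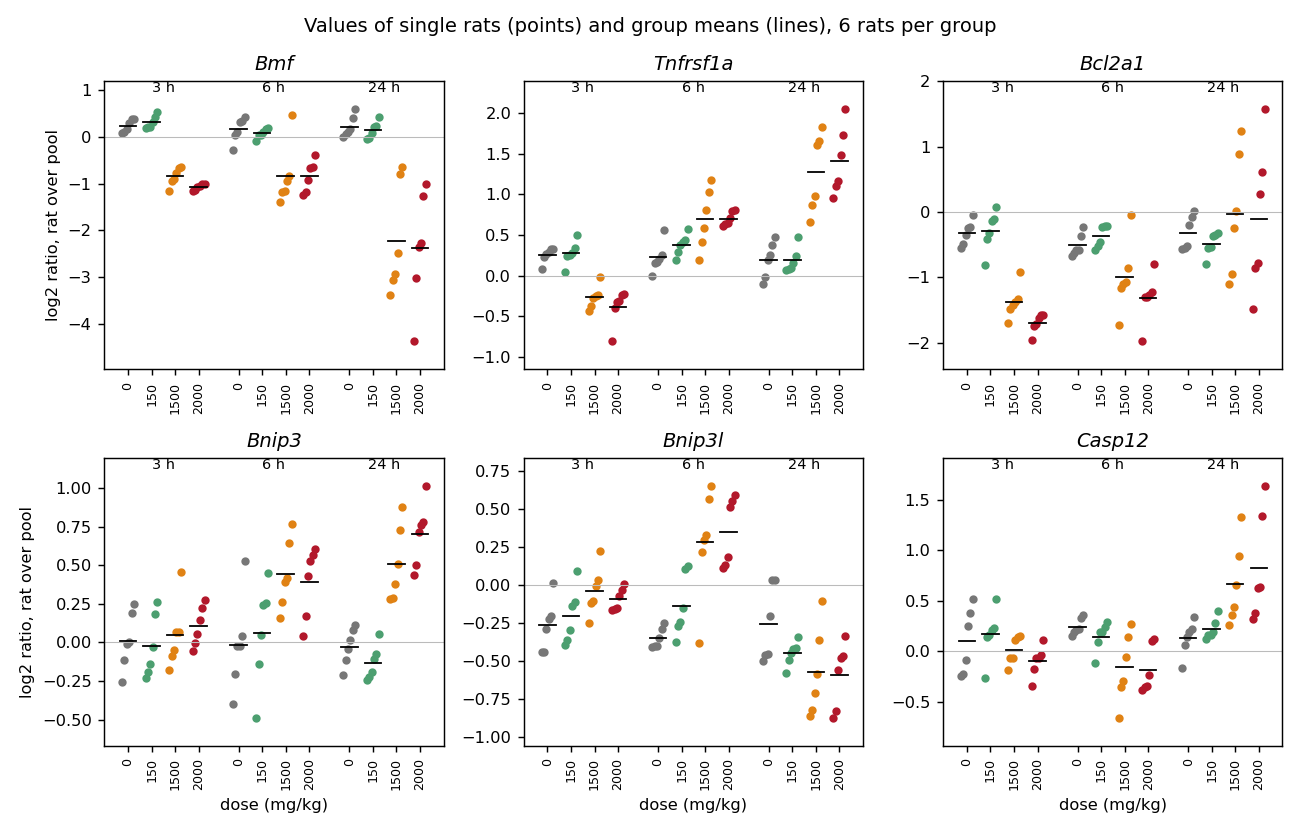
Log2 ratio to the pool (y axis) of single rats (points) with group means (lines) for 6 regulators, by dose (x axis, mg/kg) and time. Bmf at 24 h spreads from -4.36 to -0.65 over the 12 high-dose rats, all below the vehicle rats, while the Tnfrsf1a points move from below vehicle at 3 h to above it at 24 h.

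Among the caspases, the executioner Casp6 rose early and late. At 3 h its log2 ratios were -0.11, 0.20 and 0.24 with vehicle, 0.37, 0.50 and 0.63 after 1500 mg/kg, and 0.35, 0.49 and 0.65 after 2000 mg/kg, with no overlap. The rises were 0.36 ± 0.09 (0.00728) and 0.37 ± 0.09 (0.00386). The 24 h ratios were -0.39, 0.21 and 0.30 with vehicle, 0.20, 0.50 and 0.75 after 1500 mg/kg, and 0.26, 0.53 and 0.70 after 2000 mg/kg, which overlap. The rises at 24 h were 0.36 ± 0.09 (0.00207) and 0.41 ± 0.09 (0.000364). Casp6 was not called at 6 h, with differences of 0.08 and 0.16.

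Casp12, a caspase held at the endoplasmic reticulum, rose at 24 h. Its log2 ratios were -0.16, 0.16 and 0.34 with vehicle, 0.26, 0.55 and 1.33 after 1500 mg/kg, and 0.32, 0.64 and 1.64 after 2000 mg/kg. In each high-dose group 5 of 6 rats lay above all vehicle rats. The rises were 0.53 ± 0.16 (0.00927) and 0.69 ± 0.16 (0.00052), and the first was lost without rat 8194 (0.0679). The Casp12 ratios at 6 h were 0.15, 0.22 and 0.36 with vehicle, -0.66, -0.17 and 0.27 after 1500 mg/kg, and -0.38, -0.29 and 0.13 after 2000 mg/kg. The differences of -0.40 ± 0.16 (0.131) and -0.43 ± 0.16 (0.0714) were not called, although all 6 rats at 2000 mg/kg lay below all vehicle rats.

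The inflammatory caspase genes were lower at different times, and in no comparison were both called. Casp4, which in rodents senses bacterial lipopolysaccharide in the cytosol, fell at 3 h after both high doses and at 6 h after 2000 mg/kg. Its differences were -0.49 ± 0.14 (0.0248) and -0.52 ± 0.14 (0.0104) at 3 h and -0.48 ± 0.14 (0.0177) at 6 h, and it was not called at 24 h. Casp1, which matures interleukin-1 beta, was lower at 24 h after 2000 mg/kg, at -0.49 ± 0.15 (0.011), and stood at -0.28 (0.192) after 1500 mg/kg. The Casp1 call was lost without rat 9388 (0.0717). The Casp4 calls were lost without 1009 at 3 h and 2000 mg/kg (0.0621), without 1871 at 6 h (0.0592) and, at 3 h and 1500 mg/kg, without any 1 of 1009, 4623, 6161, 6474 and 7077 (up to 0.119).

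At 24 h 11.4% and 12.5% of all rows were lower after 1500 and 2000 mg/kg. The markers of Kupffer cells and macrophages, where Casp1 and Casp4 are well expressed, had 0 of 10 genes higher and 4 lower at 24 h after each high dose. Their mean log2 ratio ranged from -0.25 to 0.32 with vehicle, from -0.41 to 0.13 after 1500 mg/kg and from -0.46 to 0.01 after 2000 mg/kg. At 3 h it ranged from -0.08 to 0.28 with vehicle and from 0.12 to 0.29 after 2000 mg/kg, where Casp4 was lower. The part of these cells in either fall was not tested.

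Casp8, the initiator of the death receptor path, was not called. At 3 h its log2 ratios were -0.15, 0.49 and 0.75 with vehicle, -0.51, 0.02 and 0.26 after 1500 mg/kg, and -0.17, 0.00 and 0.65 after 2000 mg/kg. The groups overlapped, and the differences were -0.41 ± 0.14 (0.0547) and -0.31 ± 0.14 (0.155). At 24 h they were -0.05 and 0.02. Casp2 and Casp9, the apoptosome's initiator, were not called. Casp8ap2, whose product binds caspase-8 and also acts in histone mRNA processing, was higher at 3 h by 0.59 ± 0.19 (0.0486) and 0.69 ± 0.19 (0.00973). Its probes gave 0.83 (0.111) and 0.34 (0.383) at 1500 mg/kg, and 0.96 (0.0361) and 0.43 (0.177) at 2000 mg/kg. The calls were kept in 4 of 12 alternatives at 1500 mg/kg and 6 of 12 at 2000 mg/kg. The first call was lost on leaving out any 1 of the 12 rats other than 1658, 5557, 6071 and 6474 (up to 0.376), and the second without vehicle rat 2698 (0.113).

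In the BCL2 family, the change of greatest size was the fall of Bmf, a BH3-only protein that binds and neutralises survival members of the family and is held at the cytoskeleton in attached cells. At 24 h its log2 ratios were -0.02, 0.13 and 0.59 with vehicle, -3.37, -2.71 and -0.65 after 1500 mg/kg, and -4.36, -2.31 and -1.02 after 2000 mg/kg. No high-dose rat overlapped with vehicle. Bmf fell by 2.43 ± 0.32 (2.46e-08), or 5.39-fold, and by 2.59 ± 0.32 (2.24e-09), or 6.04-fold, which placed it at rank 8 and rank 9 among the falls of all 18978 rows ordered by size. Its 3 h ratios were 0.08, 0.23 and 0.38 with vehicle, -1.16, -0.84 and -0.65 after 1500 mg/kg, and -1.17, -1.06 and -1.0 after 2000 mg/kg. All high-dose rats were again below all vehicle rats, and the differences were -1.08 ± 0.32 (0.0262) and -1.31 ± 0.32 (0.00297), or 2.12-fold and 2.48-fold.

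At 6 h the Bmf ratios were -0.29, 0.21 and 0.42 with vehicle, -1.40, -1.05 and 0.47 after 1500 mg/kg, and -1.25, -0.80 and -0.40 after 2000 mg/kg. The differences were -1.0 ± 0.32 after both doses (0.0413 and 0.0272). At 1500 mg/kg 5 of 6 rats lay below all vehicle rats, and rat 7334 at 0.47 lay above them all. Of the 5 regulators called at 6 h and 1500 mg/kg, 0 were beyond all vehicle rats on the called side in rat 7334. The other rats of that group had 3 to 5. The call at 3 h and 1500 mg/kg was lost without 0186 (0.0571) or 7077 (0.0517), that at 6 h and 1500 mg/kg without any 1 of the 12 rats other than 9476 and 7334 (up to 0.126), and that at 6 h and 2000 mg/kg without 3942, 4550, 8897, 1550, 7743 or 9100 (up to 0.068).

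Bnip3 and Bnip3l encode related receptors on the outer mitochondrial membrane that hand mitochondria to autophagy, and both are induced in hypoxia. Their transcripts rose together at 6 h and parted at 24 h. At 24 h the log2 ratios of Bnip3 were -0.21, -0.01 and 0.11 with vehicle, 0.28, 0.44 and 0.88 after 1500 mg/kg, and 0.44, 0.74 and 1.02 after 2000 mg/kg, with no overlap. The rises were 0.54 ± 0.13 (0.000992) and 0.73 ± 0.13 (7.87e-06), or 1.66-fold at the higher dose. The Bnip3 ratios at 6 h were -0.40, -0.02 and 0.53 with vehicle, 0.16, 0.40 and 0.77 after 1500 mg/kg, and 0.04, 0.48 and 0.61 after 2000 mg/kg. The groups overlapped at 6 h, and the rises were 0.45 ± 0.13 (0.0166) and 0.41 ± 0.13 (0.0264).

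Bnip3l had log2 ratios at 6 h of -0.40, -0.37 and -0.25 with vehicle, -0.38, 0.31 and 0.65 after 1500 mg/kg, and 0.11, 0.35 and 0.59 after 2000 mg/kg. All but rat 7334 lay above all vehicle rats, and the rises were 0.63 ± 0.12 (0.000187) and 0.70 ± 0.12 (1.97e-05), or 1.62-fold at 2000 mg/kg. The 24 h ratios were -0.50, -0.33 and 0.03 with vehicle, -0.86, -0.64 and -0.10 after 1500 mg/kg, and -0.87, -0.52 and -0.33 after 2000 mg/kg. Bnip3l was then lower after 2000 mg/kg, at -0.33 ± 0.12 (0.0352), and stood at -0.31 ± 0.12 (0.0536) after 1500 mg/kg. The Bnip3 calls at 6 h were lost without 1871, 4550, 2123 or 8918 at 1500 mg/kg (up to 0.0731) and without 1871, 4550, 1550, 5886, 6930 or 9934 at 2000 mg/kg (up to 0.107). The Bnip3l call at 24 h was lost without 0685, 1457, 2483, 5889 or 8089 (up to 0.118).

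Bcl2a1, a survival member made mainly in leukocytes and induced by NF-kB, was lower at 3 h. Its log2 ratios were -0.55, -0.30 and -0.05 with vehicle, -1.71, -1.41 and -0.92 after 1500 mg/kg, and -1.96, -1.67 and -1.58 after 2000 mg/kg. No high-dose rat reached the vehicle range. The differences were -1.06 ± 0.29 (0.0135), or 2.08-fold, and -1.38 ± 0.29 (0.000367), or 2.6-fold. The 6 h ratios were -0.68, -0.58 and -0.23 with vehicle, -1.72, -1.09 and -0.04 after 1500 mg/kg, and -1.98, -1.29 and -0.80 after 2000 mg/kg. All 6 rats at the higher dose lay below vehicle, but the difference of -0.80 ± 0.29 was not called (0.0561), nor was -0.48 ± 0.29 at 1500 mg/kg (0.42).

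At 24 h the Bcl2a1 ratios were -0.58, -0.36 and 0.01 with vehicle, -1.10, -0.11 and 1.24 after 1500 mg/kg, and -1.48, -0.26 and 1.58 after 2000 mg/kg. The high-dose rats fell on both sides of the vehicle range, with 3 above and 2 below at 1500 mg/kg and 3 above and 3 below at 2000 mg/kg. The mean differences of 0.29 (0.532) and 0.21 (0.674) were not called. At 3 h 5.84% and 9.01% of all rows were called after 1500 and 2000 mg/kg. The neutrophil markers, which like Bcl2a1 belong to leukocytes, had 0 of 6 genes called in either direction at 3 h. Their mean log2 ratio then ranged from -0.25 to 0.09 with vehicle, from -0.39 to 0.07 after 1500 mg/kg and from -0.33 to -0.16 after 2000 mg/kg. Their part in the fall was not tested.

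Bid, which caspase-8 cuts to link death receptors to mitochondria, was lower at 3 h and higher at 24 h. Its log2 ratios at 3 h were 0.05, 0.17 and 0.26 with vehicle, -0.28, -0.18 and -0.03 after 1500 mg/kg, and -0.23, -0.13 and 0.16 after 2000 mg/kg. The difference after 1500 mg/kg was -0.33 ± 0.09 (0.0151), with all 6 rats below vehicle, and the difference after 2000 mg/kg was -0.25 ± 0.09 (0.0683). By 24 h the ratios were -0.19, 0.09 and 0.40 with vehicle, 0.13, 0.41 and 0.81 after 1500 mg/kg, and 0.36, 0.42 and 0.49 after 2000 mg/kg. The rises were 0.39 ± 0.09 (0.000599) and 0.33 ± 0.09 (0.00345), with overlap at both doses.

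Bnip1, a SNARE protein of the endoplasmic reticulum that binds BCL2, took the same course, with differences of -0.28 ± 0.08 at 3 h (0.0147) and 0.24 ± 0.08 at 24 h (0.0177), both after 2000 mg/kg. The first was lost without 1658 (0.0626) or 7365 (0.0822) and the second without 0685 (0.0669). Bcl2l13, another mitochondrial member, rose at 24 h after 2000 mg/kg by 0.31 ± 0.09 (0.00822), while its 3 probes gave 0.02, 0.52 (1.1e-06) and 0.38 (0.0353). The second of these probes was lower at 3 h, at -0.335 (0.00575) after 1500 mg/kg and -0.37 (0.00102) after 2000 mg/kg. The other probes then gave 0.29 and 0.05 after 1500 mg/kg, and 0.30 and 0.06 after 2000 mg/kg. Bcl2l13 and Bid are neighbours on GRCr8 chromosome 4 and are transcribed toward each other. Whether the transcript of one reaches the probes of the other was not tested.

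The pore former Bax was not called. At 24 h its log2 ratios were -0.02, 0.28 and 0.43 with vehicle, -0.09, 0.68 and 1.31 after 1500 mg/kg, and 0.15, 0.55 and 1.50 after 2000 mg/kg. The groups overlapped, with differences of 0.35 ± 0.17 (0.128) and 0.38 ± 0.17 (0.0922). Bak1, the other pore former, was at -0.35 at 3 h after 2000 mg/kg (0.0844).

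The survival gene Bcl2 had log2 ratios at 24 h of -0.50, -0.09 and -0.06 with vehicle, -0.31, -0.06 and 0.995 after 1500 mg/kg, and -0.19, 0.14 and 0.53 after 2000 mg/kg, which overlap. Its differences were 0.28 ± 0.21 (0.391) and 0.30 ± 0.21 (0.325). Bcl2l1, which encodes a survival protein that hepatocytes depend on, had ratios of -0.25, 0.05 and 0.57 with vehicle, -0.14, 0.32 and 1.19 after 1500 mg/kg, and -0.24, 0.17 and 0.59 after 2000 mg/kg. The differences were 0.26 ± 0.15 (0.258) and 0.08 ± 0.15 (0.797), and its value was exactly 0 on 29 arrays. The BH3-only genes Bad, Bik and Bcl2l11 and the members Bcl2l2, Bcl2l10 and Bcl2l14 were not called at any dose. Of the regulators never called, Bik had the difference of greatest size, -0.85 at 3 h after 1500 mg/kg (0.0781), with exact zeros on 32 arrays.

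Of the inhibitors of apoptosis, Birc2 and Birc3, which encode ubiquitin ligases of the TNF receptor complexes and are neighbours on GRCr8 chromosome 8, moved at different times. At 6 h the log2 ratios of Birc2 were -0.79, -0.68 and -0.32 with vehicle, -2.13, -1.23 and -0.75 after 1500 mg/kg, and -3.13, -1.69 and -0.89 after 2000 mg/kg. The difference after 2000 mg/kg was -1.10 ± 0.26 (0.00156), or 2.14-fold, with all 6 rats below vehicle. After 1500 mg/kg 5 of 6 rats lay below vehicle and the difference was -0.63 ± 0.26 (0.142). At 24 h Birc2 was at 0.29 and 0.08.

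Birc3, an NF-kB target, had log2 ratios at 24 h of 0.01, 0.19 and 0.64 with vehicle, -0.23, 1.06 and 1.38 after 1500 mg/kg, and 0.52, 0.64 and 2.16 after 2000 mg/kg. It rose by 0.62 ± 0.21 (0.0278) and 0.82 ± 0.21 (0.0024), 1.76-fold at the higher dose, with overlap at both. The first call was lost without 0685, 7075, 8194, 9398 or 9537 (up to 0.106). At 3 h its differences were 0.59 (0.0952) and 0.58 (0.0763).

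Xiap, which blocks caspases directly, was not called and varied widely between rats. Its log2 ratios at 24 h were -0.55, 0.68 and 2.01 with vehicle, 0.56, 1.43 and 1.95 after 1500 mg/kg, and 0.49, 1.14 and 1.96 after 2000 mg/kg. The differences were 0.68 ± 0.42 (0.276) and 0.53 ± 0.42 (0.411), with all groups overlapping. Of the apoptosome factors, Apaf1 had ratios at 24 h of -0.58, -0.29 and -0.05 with vehicle, -0.43, -0.19 and 0.11 after 1500 mg/kg, and -0.64, -0.36 and 0.17 after 2000 mg/kg, and was not called (0.14 and -0.01). Diablo, the mitochondrial protein that displaces inhibitors of apoptosis from caspases, was higher at 6 h after 2000 mg/kg by 0.33 ± 0.11 (0.0399) and at 0.33 after 1500 mg/kg (0.062). Its probes gave 0.37 (0.279) and 0.30 (0.00761) at 2000 mg/kg. The second probe alone was also higher at 6 h after 1500 mg/kg, by 0.27 (0.0287). At 24 h that probe was higher by 0.25 (0.0158) and 0.29 (0.00461) after 1500 and 2000 mg/kg, while the first gave 0.03 and 0.06. The Diablo call on the mean of its probes was lost on leaving out any 1 of the 12 rats other than 3942, 6930, 9100 and 9934 (up to 0.218).

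The dose comparisons asked where the response began and whether it grew. After 150 mg/kg, 0 of 50 regulators were called at 3, 6 or 24 h, as were 0% of all rows. At an unadjusted p under 0.05 there were 1, 0 and 1 regulators, Fadd at 3 h (p = 0.0156) and Tnfrsf10b at 24 h (p = 0.048), among 708, 589 and 530 rows. Differences ran from -0.56 to 0.38 at 3 h, from -0.48 to 0.46 at 6 h and from -0.24 to 0.51 at 24 h. Between 2000 and 1500 mg/kg, 0 regulators were called at 3, 6 or 24 h, against 0.0105%, 0.00527% and 0% of all rows. At an unadjusted p under 0.05 these were Traf6 at 3 h (p = 0.0415), Casp9 at 6 h (p = 0.039), and Tnfrsf10b (p = 0.0102) and Bcl2l14 (p = 0.0415) at 24 h. For Bmf at 24 h the difference between the doses was -0.16, with an interval from -0.80 to 0.47, and for Tnfrsf1a 0.14, from -0.15 to 0.44. The interval for Bmf thus spans changes of moderate size in either direction.

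The time comparisons asked whether the mean response to 1500 and 2000 mg/kg, each against vehicle of its time, differed between times. Between 24 and 3 h 15 regulators (30%) were called, against 18.8% of all rows, with 11 greater at 24 h (8.33% of all rows) and 4 smaller (10.5%). Between 24 and 6 h 9 (18%) were called against 15.6%, of which 6 were greater at 24 h (7.52% of all rows) and 3 smaller (8.12%), and between 6 and 3 h 2 (4%) against 3.93%. Tnfrsf1a was called in all 3 comparisons, with a response greater by 1.05 ± 0.18 at 6 h than at 3 h (5.96e-05), by 0.67 ± 0.18 at 24 h than at 6 h (0.00553) and by 1.72 ± 0.18 at 24 h than at 3 h (5.4e-11). Bnip3l reversed between 6 and 24 h, with a difference of -0.98 ± 0.15 (1.3e-06). Casp12 moved by 1.02 ± 0.19 between 6 and 24 h (7.28e-05), and Fas by 0.87 ± 0.24 (0.00725), although Fas was called against vehicle at neither time.

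Of the 11 regulators called at 3 h and the 16 called at 24 h, 5 were called at both, or 10% of the 50 against 3.81% of all rows. Casp6 was higher and Bmf lower at both, while 3, namely Tnfrsf1a, Bid and Bnip1, were lower at 3 h and higher at 24 h (6%, against 0.685% of all rows). These counts are of gene means, and single probes of Tnfrsf1b and Bcl2l13 took the same course. Bcl2a1, called only at 3 h, had a response greater by 1.47 at 24 h than at 3 h. Among the time differences, calls were lost for Bnip1 between 24 and 6 h without 0685 (0.0534), and between 24 and 3 h for Bcl2l10 without 2698 (0.0579), Tnfrsf1b without 1009 or 0685 (up to 0.0905), Tnfrsf25 without 1658, 5557 or 0685 (up to 0.0667), Ripk3 without any 1 of 1658, 3420, 5557, 6071, 0685, 2483, 7375, 7393, 7075, 9537, 5889 and 8089 (up to 0.0726) and Traf2 without any 1 of 2698, 5557, 6071, 0186, 6161, 2730, 7365, 0685, 5999, 7075, 8194, 9537, 5889 and 8089 (up to 0.128).

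**Figure D4:**
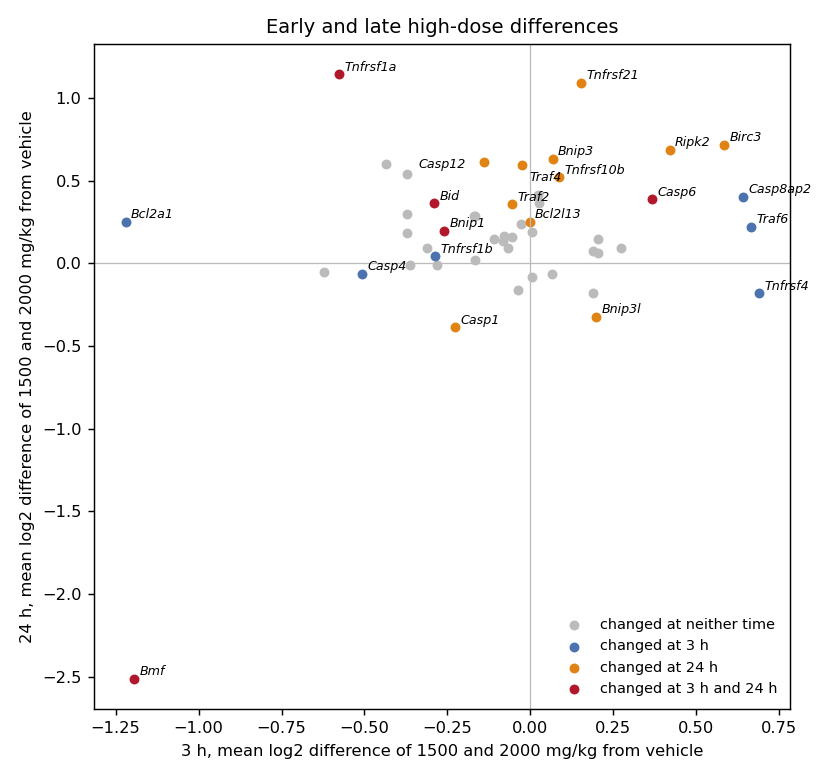
Mean log2 difference of the 1500 and 2000 mg/kg groups from vehicle at 3 h (x axis) and 24 h (y axis), 1 point for each of the 50 regulators. Tnfrsf1a, Bid and Bnip1 lie in the quadrant that is low at 3 h and high at 24 h, and Bmf stands apart at the bottom.

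At 24 h the high-dose rats differed among themselves, and several regulators were high in the rats with much S100a9. S100a9, a calcium-binding protein gene of neutrophils, had log2 ratios of -1.52, -0.64 and -0.17 with vehicle, -0.61, 0.95 and 4.34 after 1500 mg/kg, and -0.68, 0.03 and 4.55 after 2000 mg/kg. The 4 rats with the highest values were 5889 at 4.55, 9537 at 4.34, 7075 at 3.80 and 8089 at 2.32. In these rats Bcl2a1 was at 1.58, 1.24, 0.88 and 0.61, Birc3 at 2.16, 1.38, 1.26 and 1.88, Fas at 1.13, 0.68, 0.91 and 0.52, and Bax at 1.50, 1.31, 1.18 and 0.73, in the same order. All of these lay above every vehicle rat for their gene, as did, among others, Tnfrsf21, Ripk2, Ripk3 and Casp12. The genes are named because they were high in these rats, and the share of all rows that did the same was not counted. At 24 h 21.5% and 24.3% of all rows were called after 1500 and 2000 mg/kg. Rat 8194, next with S100a9 at 1.58, had Bax at 1.02, Birc3 at 1.02 and Tnfrsf21 at 1.77, all above vehicle, but Fas at -0.27 within the vehicle range. High values were not confined to rats with much S100a9, since Birc3 was at 1.10 in rat 9398, where S100a9 was -0.61, and Bax at 0.74 in rat 2015, where it was 0.26. Nor was the split particular to neutrophil genes. The mean log2 ratio of the endothelial markers was lowest in 8089 (-0.45), 9537 (-0.405), 5889 (-0.40), 8194 (-0.37) and 7075 (-0.35). In the other high-dose rats it lay between -0.20 and 0.17. The mean of the bile duct markers was highest in 5889 (1.55), 9537 (0.58) and 7075 (0.50). Which trait of these livers goes with the regulators was not tested.

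Of the whole neutrophil list, 3 of 6 markers were higher after 1500 mg/kg and 2 after 2000 mg/kg (S100a9 and Lcn2), and none lower. Of all rows 10.2% and 11.8% were higher. The list's mean log2 ratio ranged from -0.50 to 0.15 with vehicle, from -0.17 to 1.69 after 1500 mg/kg and from -0.31 to 1.82 after 2000 mg/kg. The part of these cells in the values of Bcl2a1, Birc3, Fas, Bax, Tnfrsf21, Ripk2, Ripk3, Casp12 and Tnfrsf1a was not tested. Tnfrsf1a was above all vehicle rats also in the high-dose rats with low S100a9, its lowest value being 0.66. Its highest values were 2.05 in 8089, 1.83 in 9537, 1.73 in 5889, 1.66 in 8194 and 1.61 in 7075. These were the rats with the highest S100a9, and the next Tnfrsf1a value was 1.49 in 2015. Bmf was lowest in the 4 rats with the highest S100a9, at -4.36 in 8089, -3.37 in 9537, -3.07 in 7075 and -3.02 in 5889. The falls of least size were in 5389 at -0.65, 0504 at -0.80, 9540 at -1.02 and 2197 at -1.26.

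**Figure D5:**
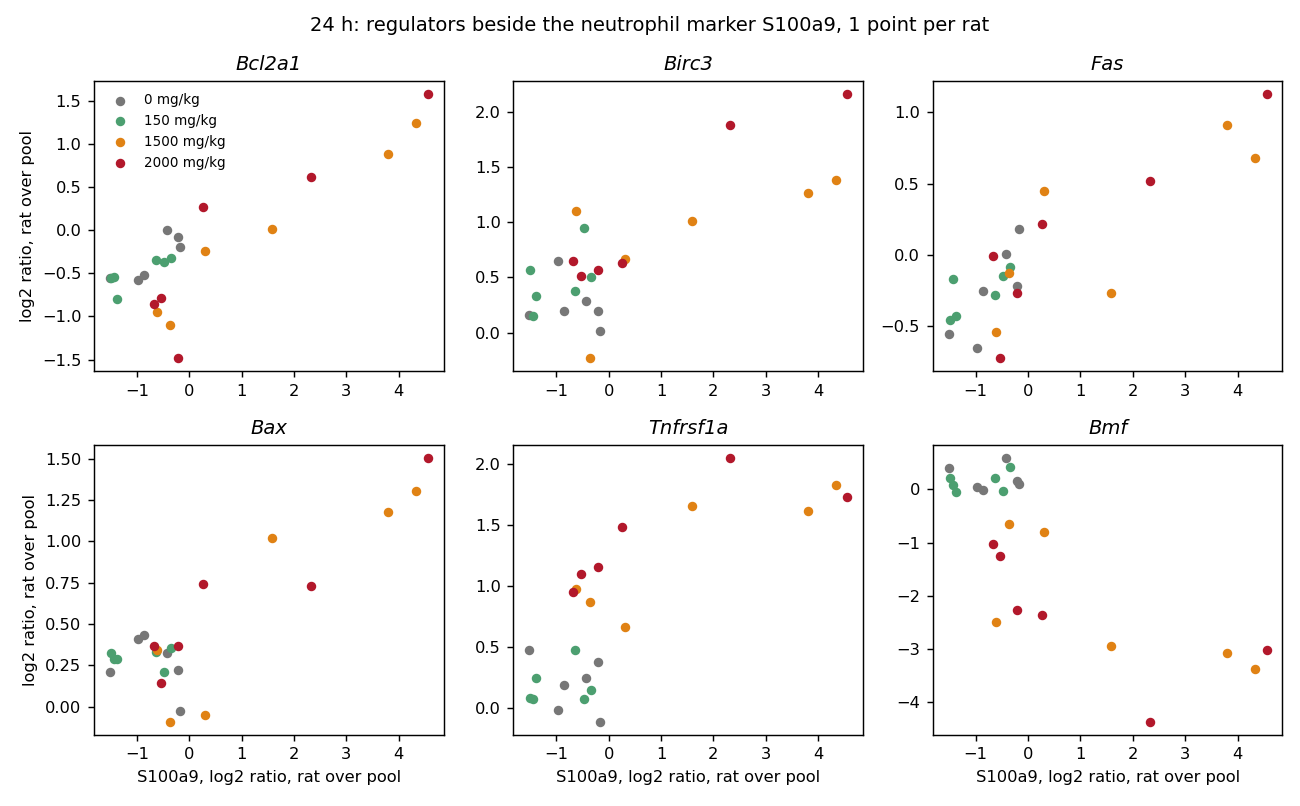
Log2 ratio to the pool of regulators at 24 h (y axis, 1 panel per gene) against that of the neutrophil marker S100a9 (x axis), 1 point per rat, coloured by dose. The 4 rats with S100a9 above 2 hold high values of Bcl2a1, Birc3, Fas and Bax. Tnfrsf1a is raised in every high-dose rat, and most in the rats with the highest S100a9.

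Some markers of other liver cells were called at 24 h as well. After 2000 mg/kg, when 12.5% of all rows were lower, the endothelial list had 5 of 9 genes lower, T and NK cells 3 of 12, stellate cells and fibroblasts 3 of 10 and B cells 1 of 3, with 0 higher in each. Of the hepatocyte markers 1 of 9 was higher and 0 lower, and of the bile duct markers 0 of 5 were called. The lists are short, and the bearing of these genes on the regulators was not tested.

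Genes of the same pathways outside the symbol rule were read from lists. At 24 h 10.2% and 11.8% of all rows were higher after 1500 and 2000 mg/kg, and 11.4% and 12.5% lower, which is the background for the counts of every list here. At 24 h, among ER stress and kinase death signals, 9 of 16 were higher after 1500 mg/kg and 10 after 2000 mg/kg, with 0 and 1 lower, and the median at 2000 mg/kg was 0.69. The leading genes were Trib3, the autophagy receptor gene Sqstm1 (1.04 ± 0.14) and the transcription factor gene Atf4 (1.24 ± 0.21). The direction of all ratios was set by stress-response genes, Trib3 among them, so the direction of this list is not a separate result. Among genes of necroptosis and ferroptosis 5 of 10 were higher and 1 lower after each dose (median 0.48), led by the cystine transporter genes Slc7a11 (1.95 ± 0.24) and Slc3a2 (1.66 ± 0.22) and the transferrin receptor gene Tfrc (0.95 ± 0.20). Slc7a11 and Slc3a2 act against ferroptosis.

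Of p53 and its death targets 7 of 14 were higher after each dose, with 3 and 1 lower (median 0.47). Aen, a nuclease gene, rose by 0.97 ± 0.14, the growth arrest gene Gadd45a rose by 1.80 ± 0.36, and Ei24 fell by 0.84 ± 0.15. Among NF-kB genes 7 and 8 of 19 were higher and 2 lower (median 0.26). The mitotic gene Birc5 fell by 1.02 ± 0.19 and Tnip1, an inhibitor of the path, fell by 0.28 ± 0.07, while the inhibitor gene Nfkbib rose by 0.28 ± 0.08.

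Among death ligands and receptor adaptors 3 and 4 of 19 were higher and 3 lower (median 0.23). The TRAIL gene Tnfsf10 fell by 1.12 ± 0.20 and Tradd, the adaptor of Tnfrsf1a, fell by 0.38 ± 0.07, beside a rise of the Fas-associated factor gene Faf1 by 0.29 ± 0.05. Tnfsf10 was also lower at 3 h (-0.71 ± 0.20) and 6 h (-0.61 ± 0.20) after 2000 mg/kg. Of mitochondrial death factors and caspase targets 2 and 1 of 17 were higher and 0 and 1 lower (median 0.15), with the caspase target Parp1 at 0.46 ± 0.11, the nuclease gene Dffb at -0.16 ± 0.05 and cytochrome c gene Cycs at 0.28 ± 0.11, not called (0.0628). Of BCL2 relatives outside the rule 2 of 7 were higher after each dose (median 0.19), namely the co-chaperone gene Bag3 (2.12 ± 0.35) and the Bax-binding gene Moap1 (0.41 ± 0.09). The median over all rows at 24 h and 2000 mg/kg was -0.02.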

How the data were processed

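Liver RNA of 72 rats was measured on 144 arrays, 2 per rat with exchanged dyes, per the labels. The authors deposited processed values for 22075 probes, read here as log10 of the Cy5 to Cy3 ratio, and a list that gives the dose for each rat number. How background and dyes were corrected is not given in the sources used here. Whether the pooled vehicle rats are those measured is not stated. Exact zeros made up 7.74% of values, blanks 0.836%, and array medians lay between 0 and 0.000258.

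Values were turned to log2 of rat over pool and the 2 arrays of a rat averaged, so that rats are the replicates. Of the probes, 12750 had 1 gene symbol, 5 several and 9320 none in the platform annotation; probes of 1 symbol were averaged, which concerned 6 of the 50 regulators. All 50 symbols stood in the RefSeq gene table of GRCr8. Group means of all 12 groups were fitted with limma 3.58.1 (R 4.3.3), with moderated variances and Benjamini-Hochberg adjustment over 18978 rows. Python 3.11.15 was used with NumPy 2.4.6, pandas 2.3.3 and matplotlib 3.10.9. Tested on simulated data (18822 rows, comparison of 2000 mg/kg with vehicle at 24 h), the fit recovered 40% of genes shifted by 0.5 (log2), 84% at a shift of 1 and 100% at 2. Of its 163 calls 9 were false. The simulation gave each gene 1 spread in all groups and shifted 50 genes by each size, while 24.3% of rows were called in the real comparison. The shares recovered thus need not hold at 24 h, where the high-dose rats differed widely. Depth does not apply to arrays, and the number of rats and arrays limits the precision.

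The regulators and lists were chosen with earlier results of these data known. Every regulator called in any of 9 comparisons with vehicle was named. Single rats are given for the 12 with the smallest adjusted p and for Fas, Bax, Casp8, Bid, Bcl2, Bcl2l1, Xiap, Apaf1 and Tnfrsf1a, and at most 3 genes per pathway list were named by p. Those of Tnfrsf10b, Tnfrsf21, Ripk2 and Ripk3 at 24 h fall outside this rule and were chosen from the data.

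After the mean dye effect was removed, r between the arrays of a rat, across probes, was negative for 63 of 72 rats (median -0.421) and above -0.1 for 12. A set of 49 arrays shares 500 blank probes and holds both arrays of 23 rats. Alternatives were median centring of arrays, 1 dye orientation alone, exact zeros as missing or filtered, 1 row per probe, the compared groups alone, quality weights, the blank set as a covariate, the rats without and those with both arrays in that set, the 12 rats left out, all arrays with the rat as a random block (correlation 0.251), and each rat left out.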

Additional observations from a re-analysis of the deposited data

Results flagged for a closer look

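Single rats stood far from the other 5 rats of their group in 16 of 228 groups tested, while chance flags about 1 in 20 groups. These log2 ratios were, for Tnfrsf1a, -0.81 in rat 7365 (3 h, 2000 mg/kg), whose others lay between -0.40 and -0.23, and for Bmf 0.47 in rat 7334 (6 h, 1500 mg/kg), whose others lay between -1.40 and -0.83. Rat 7365 also had Apaf1 at 0.56, and rat 7334 had Xiap at 2.23. In rat 0186 (3 h, 1500 mg/kg) Tnfrsf4 was at 0.78 and Casp8 at -0.51, each the lowest of the group. At 3 h, vehicle rat 1009 had Casp8 at -0.15, vehicle rat 2698 had Xiap at -3.20, rats 7415 (1500 mg/kg) and 4176 (2000 mg/kg) had Bax at 0.50 and 0.98, and rat 4623 (1500 mg/kg) had Bcl2 at 0.70. At 6 h, rat 5886 (2000 mg/kg) had Tnfrsf4 at 1.95, rat 5870 (150 mg/kg) had Bcl2 at -1.23 and vehicle rat 8897 had Bcl2l1 at -0.58. At 24 h, vehicle rat 0685 had Traf4 at -0.23 and rat 8658 (150 mg/kg) had Birc2 at 0.52. Rats 7365, 1009, 5886, 5870, 8897 and 0685 are among the rats whose dye-exchanged arrays correlated above -0.1. The other flagged rats are not. The part of array quality in these flags was not tested.

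The mean high-dose response differed between times, by limma's test of that difference, for 17 regulators. Between 24 and 3 h the difference on the log2 scale was 1.72 for Tnfrsf1a, 1.47 for Bcl2a1, 0.92 for Ripk3, 0.75 for Casp12, 0.67 for Tnfrsf25, 0.65 for Bid, 0.62 for Traf4, 0.57 for Bnip3, 0.46 for Bnip1, 0.41 for Traf2 and 0.33 for Tnfrsf1b. It was -1.32 for Bmf, -0.87 for Tnfrsf4, -0.52 for Bnip3l and -0.37 for Bcl2l10. Between 24 and 6 h it was 1.05 for Birc2, 1.02 for Casp12, 0.87 for Fas, 0.67 for Tnfrsf1a, 0.49 for Bid and 0.31 for Bnip1, and -1.51 for Bmf, -0.98 for Bnip3l and -0.80 for Tnfrsf4. Between 6 and 3 h it was 1.05 for Tnfrsf1a and 0.89 for Tnfrsf25.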

How the results depend on the processing

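The 58 calls of regulators against vehicle gave 731 values over the 13 alternatives, of which 571 kept the call, 160 lost it and 0 changed sign, and 31 of the 58 calls held with each rat left out in turn. Counts of called regulators that moved by more than 1.5 times are given here, and the cause was not tested except that smaller sets of rats allow fewer calls. At 3 h the count of 8 after 1500 mg/kg was 5 with the rat's Cy5 array alone, 0 in rats with no array in the blank set and 5 without the 12 rats, and the 10 after 2000 mg/kg were 3 and 3 in the last 2 settings. At 6 h the 5 after 1500 mg/kg were 3 with the Cy5 array, 1 with only the compared groups, 13 with quality weights, 9 with the random block, 1 in rats outside the blank set and 1 without the 12 rats. The 8 after 2000 mg/kg were 17 with weights, 13 with the block, 2 outside the set, 2 in rats with both arrays in it and 4 without the 12 rats. At 24 h the 12 after 1500 mg/kg and 15 after 2000 mg/kg were 5 and 8 with only the compared groups, 3 and 7 outside the set, and 7 and 7 in it. For the time differences, the 2 between 6 and 3 h were 1 outside the set, 1 without the 12 rats and 4 with the block, the 9 between 24 and 6 h were 14 with weights, 14 with the block and 2 outside the set, and the 15 between 24 and 3 h were 5 outside the set. With each rat left out, the counts after 1500 and 2000 mg/kg ranged from 6 to 10 and 9 to 12 at 3 h, 2 to 6 and 5 to 8 at 6 h, and 8 to 17 and 11 to 18 at 24 h, and those between times from 2 to 4 (6 against 3 h; 4 without rat 5557), 8 to 11 (24 against 6 h) and 12 to 17 (24 against 3 h). Rats with both arrays in the blank set could not be compared at 3 h, where no vehicle rat had both, and at 6 h after 1500 mg/kg. Centring, exact zeros as missing or filtered, 1 row per probe and the blank covariate moved no count by that much. No paired analysis was possible because rat numbers are not shared between groups.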
